A study of Mus musculus with 9 samples.

Results

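The genes described here belong to the unfolded protein response and the integrated stress response of 3T3-L1 pre-adipocytes. A list of 37 genes was matched by exact symbol to the array platform's annotation, and each gene was read from its brightest probe set, the set of oligonucleotides that reports 1 transcript. Of the 37 genes, 36 lay on probe sets that name a single gene, and all 36 passed the filter on dim genes, out of 12630 genes tested in all. The exception was Pdia4, whose probe set also names Mir704. The list splits into 13 measured chaperone genes of the endoplasmic reticulum (ER), 4 genes of ER-associated degradation (ERAD), 4 genes of stress sensing (3 sensors and Xbp1), and 15 genes made up of Atf4, its partner factors and feedback regulators, and target genes of ATF4.

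3T3-L1 is a mouse fibroblast line that turns into fat cells under hormonal induction. The first group of 3 samples was labelled as transfected with siRNA against CD24, a small surface glycoprotein encoded by Cd24a, and treated for 6 h with 0.5 mM IBMX and 1 µM dexamethasone (Dex). The second group of 3 samples received scrambled siRNA and the same IBMX/Dex treatment. The third group of 3 samples was treated with vehicle, and the labels do not state whether it was also transfected. No treatment time is listed for it. All IBMX/Dex samples were labelled with siRNA, so IBMX/Dex and transfection cannot be told apart if the vehicle samples were not transfected. All cells were confluent and growth-arrested for 48 h before treatment, and the siRNA quantity was 100 nmol. Whether the 3 samples of a group came from independently grown cultures is not given, and the p-values cover only their spread, which may be technical. IBMX blocks phosphodiesterases and thereby raises cAMP, and Dex activates the glucocorticoid receptor. Together they form part of the standard cocktail that starts adipogenesis.

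The unfolded protein response is started in the ER membrane by the sensors IRE1 (Ern1), ATF6 (Atf6) and PERK (Eif2ak3) when unfolded proteins accumulate in the lumen. IRE1 splices the mRNA of the transcription factor XBP1, and together with cleaved ATF6 this raises ER chaperones, disulfide isomerases and ERAD components. PERK phosphorylates the initiation factor eIF2 alpha, as do the kinases that sense amino acid shortage, haem shortage and double-stranded RNA, and this shared branch is the integrated stress response. It lowers general translation, favours translation of ATF4, and so raises genes of amino acid synthesis, redox balance and feedback control. Much of this signalling acts through splicing, cleavage, phosphorylation and translation, which a probe set value for a gene does not read.

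The DNA elements that define these branches were looked for in RefSeq promoter windows (build GRCm38.p6), which span 250 bases before to 50 bases after each gene's start. Windows were found for 33 of the 37 genes, not for Atf6, Manf, Hyou1 or Cth. Atf5, Psat1 and Vldlr had 2 windows each. A listed gene was counted if any of its windows held an element, whereas the shares over all windows are counted per window. The ER stress element was searched on both strands as CCAAT, then 9 bases of any kind, then CCACG, and 0.119% of 32851 windows held it. It was present in 7 of the 12 chaperone genes with a window, in Syvn1, and in 0 of 14 genes of the ATF4 group with a window. The sites below are printed because they belong to chaperone genes whose expression is described next, some of which passed the test and some of which did not. Each is given 5′ to 3′ on the gene's strand, with the element in capitals. Where the element lies on the opposite strand the capitals open with CGTGG and close with ATTGG.
Hspa5, chr2:34772013-34772055, plus strand: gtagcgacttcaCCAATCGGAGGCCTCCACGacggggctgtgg
Hsp90b1, chr10:86705626-86705668, minus strand: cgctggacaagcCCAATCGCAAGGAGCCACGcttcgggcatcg
Pdia6, chr12:17266479-17266521, plus strand: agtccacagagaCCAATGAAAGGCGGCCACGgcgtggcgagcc
Dnajc3, chr14:118937815-118937857, plus strand: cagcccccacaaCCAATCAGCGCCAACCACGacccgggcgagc
Creld2, chr15:88819508-88819550, plus strand: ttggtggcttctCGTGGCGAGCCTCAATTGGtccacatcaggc
Calr, chr8:84847063-84847105, minus strand: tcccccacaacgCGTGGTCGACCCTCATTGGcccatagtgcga
Canx, chr11:50325788-50325830, minus strand: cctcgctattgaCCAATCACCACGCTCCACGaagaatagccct

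The C/EBP-ATF response element, at which ATF4 pairs with C/EBP factors, was searched on both strands as TGATGNAAN, and 3.95% of all windows held it. It was present in Atf3, Trib3, Nupr1, Asns, Chac1 and, in its second window alone, Vldlr. That is 6 of the 14 genes of the ATF4 group with a window. The element was also present in Herpud1, and in 0 of 12 chaperone genes. The sites of Herpud1, Chac1 and Trib3, the genes lower in both IBMX/Dex groups than with vehicle, are printed first. Beside them are those of Nupr1 and Asns, which did not pass the test. Except in Asns, the element lies on the opposite strand, so that the capitals end in CATCA. All lie before the gene's start, except that of Trib3, which lies just after it.
Herpud1, chr8:94386304-94386336, plus strand: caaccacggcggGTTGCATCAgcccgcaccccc
Chac1, chr2:119351036-119351068, plus strand: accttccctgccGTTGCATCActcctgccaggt
Trib3, chr2:152344027-152344059, minus strand: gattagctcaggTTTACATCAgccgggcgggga
Nupr1, chr7:126625561-126625593, minus strand: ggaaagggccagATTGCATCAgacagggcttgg
Asns, chr6:7693212-7693244, minus strand: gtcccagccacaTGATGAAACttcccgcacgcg
The full cAMP response element TGACGTCA was held by 1.79% of all windows and, among the listed genes, by Ppp1r15a alone. The unfolded protein response element TGACGTGG was held by 0.676% of all windows and by 0 of the listed genes. A match is a stretch of letters and does not show that a factor binds there.

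All expression values below are log2 RMA intensities as deposited. The 9 arrays had medians between 6.47 and 6.56, and arrays of the same group correlated at r = 0.963 to 0.990 over probe sets. Cd24a read 10.15, 10.16 and 11.72 in replicates 1 to 3 labelled CD24 siRNA, 11.19, 11.73 and 11.81 with scrambled siRNA, and 8.88, 9.92 and 9.49 with vehicle. The library labelled CD24 siRNA replicate 3 thus lay within the scrambled range, against its label, and the difference of the CD24 siRNA group from the scrambled group did not pass the test (-0.90 ± 0.43 log2, SE, limma adjusted p = 1). Of the cell type markers, 8 of 9 named pre-adipocyte and fibroblast markers were above the filter, with Vim the brightest. Of 5 mature adipocyte markers, Fabp4 alone was above it, and Adipoq, Plin1, Lep and Cidec were not. Above the filter were also 3 of 6 macrophage, 1 of 5 endothelial, 2 of 5 epithelial and 5 of 5 muscle markers, the brightest being Cd14, Cdh5, Krt14 and Tnnt2. The list means of these other cell types, which include markers below the filter, lay between 5.67 and 7.57 on every array. Single markers were brighter, with Fabp4 averaging 9.60 and Cd14 8.61 over the 9 arrays. The pre-adipocyte list averaged 10.12 to 10.19 with CD24 siRNA, 10.10 to 10.19 with scrambled siRNA and 10.49 to 10.65 with vehicle, and its genes Pdgfra and Pdgfrb fell with and without the replicate block described below, by 1.10 and 1.61 log2 with CD24 siRNA and by 1.04 and 1.66 log2 with scrambled siRNA. With the block 3 of the 8 fell with CD24 siRNA and 4 of 8 with scrambled siRNA, since Col3a1 also fell in both (by 0.70 and 0.51 log2, limma adjusted p = 0.00285 and 0.012) and Col1a1 with scrambled siRNA (by 0.45 log2, 0.0132, against a difference of -0.25 log2 and 0.126 with CD24 siRNA). With the block 12.1% of all genes tested fell with CD24 siRNA and 11.4% with scrambled siRNA. The muscle marker Des fell with and without the block, by 0.71 and 0.70 log2. The macrophage marker Cd14 rose with scrambled siRNA with the block alone (0.54 log2, adjusted p = 0.023 with it and 0.572 without it), and with CD24 siRNA its difference was 0.25 log2 (0.236 with the block). The part of these markers in the results below was not tested. Samples with the same replicate number resembled each other, so each comparison was fitted with limma without and with the replicate number as a block. For some genes and lists the fit with the block alone is given. Fewer cells of a type and less RNA per cell cannot be told apart in these bulk samples.

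The ER chaperone genes were higher in both groups with siRNA and IBMX/Dex than with vehicle. With the block, 9 of the 13 measured chaperone genes rose in the CD24 siRNA group against vehicle, where 10.4% of all genes tested rose. Also with the block, 9 of 13 rose in the scrambled group against vehicle, where 11.9% of all genes did. The genes were Hyou1, Dnajb9, Manf, Hspa5, Creld2, Pdia6, Dnajc3, Dnajb11 and Hsp90b1 in each case, and 0 fell. At all 3 replicate numbers, 12 of the 13 genes were above vehicle with CD24 siRNA, where 25.9% of all genes were, and 13 of 13 with scrambled siRNA, where 27.6% were. The ranges of the groups did not overlap for 10 of 13 genes with CD24 siRNA, against 12.1% of all genes, and for 8 of 13 with scrambled siRNA, against 12.8%. The median difference of the 13 genes was 0.48 log2 with CD24 siRNA and 0.43 log2 with scrambled siRNA, against 0.02 log2 over all genes tested in each comparison. The 2 comparisons share the vehicle samples and are not independent of each other. Without the block, 3 chaperone genes rose in each comparison, against backgrounds of 2.92% with CD24 siRNA and 3.33% with scrambled siRNA.

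**Figure D1:**
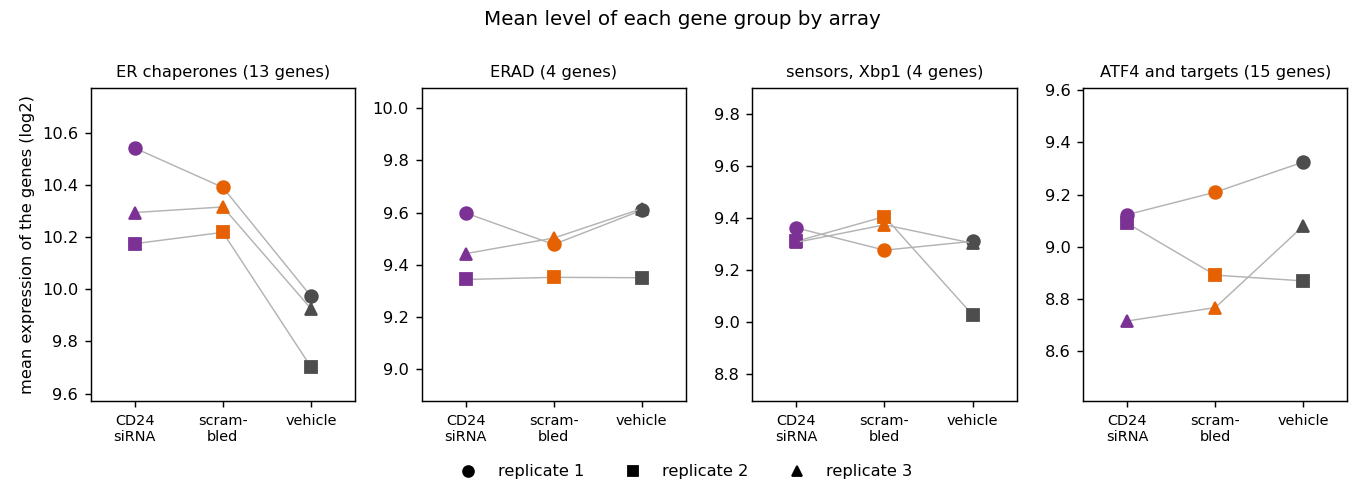
Mean log2 expression of the genes of each group on each of the 9 arrays, by treatment (CD24 siRNA and scrambled siRNA both with IBMX/Dex); grey lines join equal replicate numbers and bear no time order. The 13 chaperone genes averaged 10.18 to 10.54 with CD24 siRNA and 10.22 to 10.39 with scrambled siRNA, above all 3 vehicle arrays at 9.70 to 9.97, while in the other panels the IBMX/Dex and vehicle ranges overlap.

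Hyou1, the nucleotide exchange factor that releases clients from BiP, had the largest chaperone difference. It read 10.28, 10.00 and 10.24 with CD24 siRNA, 10.18, 10.08 and 10.22 with scrambled siRNA, and 9.56, 8.99 and 9.47 with vehicle. All 6 IBMX/Dex arrays lay above all 3 vehicle arrays. Hyou1 rose 1.79-fold with CD24 siRNA (0.84 ± 0.16 log2, SE, limma adjusted p = 0.0171, and 0.000917 with the block). It rose 1.77-fold with scrambled siRNA (0.82 ± 0.16 log2, SE, limma adjusted p = 0.0175, and 0.000968 with the block). Without the block, both calls held when vehicle replicate 2, the lowest of the 9 arrays, was left out, and each was lost without replicate 1 or 3 of its own siRNA group.

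Hspa5 encodes BiP, the main Hsp70 chaperone of the ER lumen and the partner that holds the sensors inactive. It read 10.52, 10.15 and 10.29 with CD24 siRNA, 10.51, 10.15 and 10.31 with scrambled siRNA, and 10.04, 9.28 and 9.71 with vehicle. The lowest IBMX/Dex array lay above the highest vehicle array, and within each replicate number the 2 siRNA groups differed by no more than a few hundredths of a log2 unit. Hspa5 was 1.56-fold higher with CD24 siRNA (0.64 ± 0.19 log2, SE) and 1.57-fold higher with scrambled siRNA (0.65 ± 0.19 log2, SE). These passed with the block (limma adjusted p = 0.00306 and 0.00281) and not without it (0.0868 and 0.0826). The vehicle arrays alone spanned 9.28 to 10.04, more than the mean difference between groups, and that spread followed the replicate number.

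Manf, a secreted ER-resident protein that binds BiP, read 7.70, 7.29 and 7.42 with CD24 siRNA, 7.75, 7.34 and 7.51 with scrambled siRNA, and 7.08, 6.56 and 6.80 with vehicle. No IBMX/Dex array reached down to the vehicle range, and the order replicate 1, 3, 2 from high to low was the same in all 3 groups. The differences within a replicate number were close to each other, at 0.62, 0.74 and 0.62 log2 with CD24 siRNA and 0.66, 0.79 and 0.71 log2 with scrambled siRNA. Manf was 1.58-fold higher with CD24 siRNA (limma adjusted p = 0.0542, and 0.00113 with the block) and rose 1.65-fold with scrambled siRNA (0.0393, and 0.00067 with the block). Without the block the scrambled call survived the loss of CD24 siRNA replicate 1 or vehicle replicate 1 and of no other array, and with the block both calls held without any 1 array.

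Dnajb9 encodes a J-domain co-chaperone that recruits BiP to IRE1 and to misfolded clients. It read 9.79, 9.13 and 9.35 with CD24 siRNA, 9.44, 9.28 and 9.55 with scrambled siRNA, and 8.77, 8.29 and 8.85 with vehicle. All 6 IBMX/Dex arrays exceeded every vehicle array. Dnajb9 rose 1.72-fold in both comparisons, by 0.78 ± 0.20 log2 with CD24 siRNA and 0.79 ± 0.20 log2 with scrambled siRNA (SE). The limma adjusted p was 0.049 and 0.0476 without the block, near the threshold of 0.05, and 0.0029 and 0.0027 with it. Without the block, removal of any 1 of the 9 arrays ended the CD24 siRNA call, and removal of any except CD24 siRNA replicate 1 ended the scrambled call. With the block, neither call was lost on removal of any 1 array.

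Hsp90b1 encodes GRP94, the Hsp90 chaperone of the ER, and its promoter window held the ER stress element at a pair of sites. It read 11.75, 11.55 and 11.70 with CD24 siRNA, 11.65, 11.58 and 11.66 with scrambled siRNA, and 11.28, 11.30 and 11.16 with vehicle. Its arrays within a group lay close together and the IBMX/Dex and vehicle ranges were apart. Hsp90b1 rose 1.34-fold with CD24 siRNA (0.42 ± 0.10 log2, SE, limma adjusted p = 0.0383, and 0.0133 with the block). With scrambled siRNA it was 1.3-fold higher (0.38 ± 0.10 log2, SE, limma adjusted p = 0.0527, and 0.0194 with the block). Without the block the CD24 siRNA call held only when the array left out was scrambled replicate 1. With the block the CD24 siRNA call needed replicates 1 and 3 of that group and vehicle replicate 1, and the scrambled call needed replicates 2 and 3 of that group and vehicle replicates 1 and 3.

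The other 4 chaperone genes that rose with the block did so by 0.48 to 0.53 log2 with CD24 siRNA and by 0.41 to 0.46 log2 with scrambled siRNA. They were Creld2, an ER protein with isomerase activity; Pdia6, a protein disulfide isomerase that also acts on IRE1; Dnajc3, a BiP co-chaperone first known as an inhibitor of eIF2 alpha kinases; and Dnajb11, a BiP co-chaperone. Creld2 read 10.48, 9.98 and 9.89 with CD24 siRNA, 10.16, 9.94 and 9.90 with scrambled siRNA, and 9.75, 9.41 and 9.60 with vehicle. It was 0.53 log2 higher with CD24 siRNA and 0.41 log2 higher with scrambled siRNA than with vehicle (limma adjusted p with the block 0.00848 and 0.024). Dnajb11 was 0.48 and 0.43 log2 higher (0.00567 and 0.00849), and its calls held without any 1 of the 9 arrays. Pdia6 was 0.49 and 0.44 log2 higher (0.0132 and 0.0191), and Dnajc3 0.48 and 0.46 log2 higher (0.0207 and 0.0232). Without the block none of these 4 genes passed. The limma adjusted p was then 0.0945 to 0.201 with CD24 siRNA and 0.103 to 0.242 with scrambled siRNA. For Pdia6 and Dnajc3 the largest difference was that of replicate 1 and the smallest that of replicate 3. The scrambled call of Creld2 needed scrambled replicates 2 and 3 and vehicle replicates 1 and 2. The calls of Dnajc3 needed replicates 1 and 2 of the siRNA group compared and of vehicle. Those of Pdia6 needed vehicle replicate 1 and, with CD24 siRNA, replicate 1, or, with scrambled siRNA, all 3 scrambled arrays.

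The lectin chaperones and the remaining folding genes gave smaller values. Sdf2l1, a partner of Dnajb11 that keeps clients soluble, was 0.38 log2 higher with CD24 siRNA and 0.33 log2 higher with scrambled siRNA, and missed the threshold with the block (limma adjusted p = 0.0507 and 0.0815). Calr, Canx and Pdia3 act together in the lectin cycle that folds glycoproteins. Calr read 12.66, 12.69 and 12.77 with CD24 siRNA, 12.35, 12.74 and 12.83 with scrambled siRNA, and 12.32, 12.56 and 12.61 with vehicle. Its difference was 0.21 log2 with CD24 siRNA and 0.15 log2 with scrambled siRNA. Pdia3 differed by 0.15 and 0.10 log2 and Canx by 0.04 and 0.05 log2, and none of these passed with or without the block. With the block, the 95% interval of the Canx difference was -0.16 to 0.25 log2 with CD24 siRNA and -0.16 to 0.26 log2 with scrambled siRNA, below the estimates of Hyou1, Dnajb9, Manf and Hspa5.

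**Figure D2:**
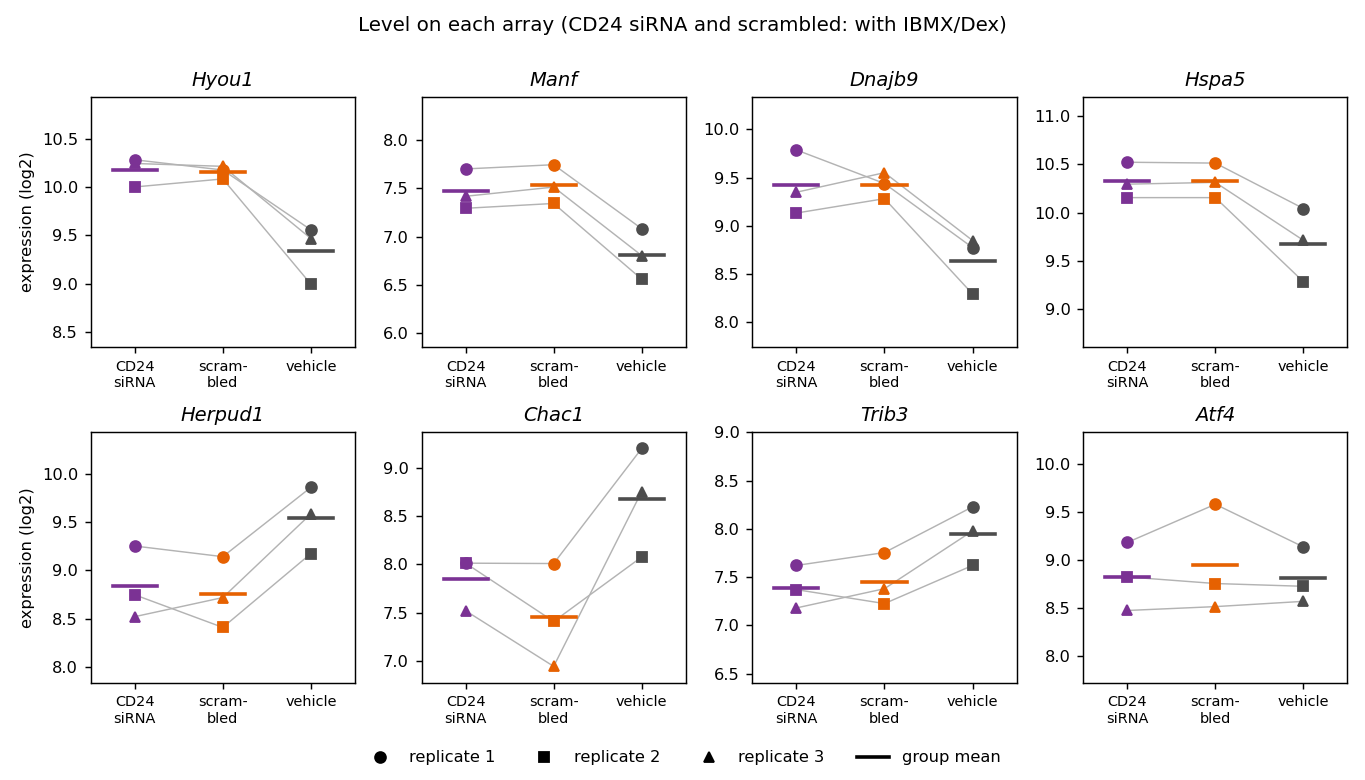
Log2 expression on each of the 9 arrays for 4 chaperone genes (Hyou1, Manf, Dnajb9, Hspa5) and for Herpud1, Chac1, Trib3 and Atf4, with group means as bars and grey lines joining equal replicate numbers. In the upper row all IBMX/Dex arrays lie above all vehicle arrays; in the lower row Herpud1, Chac1 and Trib3 lie below vehicle at every replicate number and Atf4 overlaps vehicle.

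ERAD genes did not follow the chaperone genes as a group. Herpud1, a membrane protein that assembles the ERAD ligase complex, was lower in both IBMX/Dex groups than with vehicle. Edem1, Sel1l and Syvn1 did not pass the test. Herpud1 read 9.25, 8.75 and 8.52 with CD24 siRNA, 9.14, 8.41 and 8.72 with scrambled siRNA, and 9.86, 9.17 and 9.59 with vehicle. It was lower than vehicle at all 3 replicate numbers under either siRNA, and the CD24 siRNA range overlapped the vehicle range through replicate 1 while the scrambled range did not. With the block it fell by 0.70 log2 with CD24 siRNA, that is 1.63-fold lower (limma adjusted p = 0.00471), and by 0.78 log2 with scrambled siRNA, 1.72-fold lower (0.00263). Without the block it did not pass (adjusted p = 0.143 and 0.104), and with it both calls held without any 1 of the 9 arrays. The background of genes that fell with the block was 12.1% with CD24 siRNA and 11.4% with scrambled siRNA.

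Sel1l and Syvn1 form the core of the HRD1 ubiquitin ligase, and Edem1 is a lectin that hands over misfolded glycoproteins. Syvn1 was 0.21 log2 higher with CD24 siRNA and 0.27 log2 higher with scrambled siRNA (limma adjusted p with the block 0.137 and 0.0702), and it was above vehicle at all 3 replicate numbers in each. Sel1l was 0.19 and 0.16 log2 higher (0.177 and 0.236). Edem1 differed by 0.05 and 0.03 log2, with 95% intervals of -0.20 to 0.29 and -0.21 to 0.27 log2 with the block.

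Among the sensors, Ern1 alone passed a test, and in the scrambled comparison alone. Ern1 read 9.61, 9.92 and 9.88 with CD24 siRNA, 9.93, 9.97 and 10.04 with scrambled siRNA, and 9.63, 9.24 and 9.79 with vehicle. The scrambled arrays lay above all vehicle arrays, and vehicle replicate 2 was the lowest of the 9. With scrambled siRNA Ern1 rose 1.35-fold (0.43 log2, limma adjusted p with the block 0.0472, and 0.137 without it), and this call was lost in 7 of the 9 fits that left out 1 array, all except those without CD24 siRNA replicate 2 or vehicle replicate 3. With CD24 siRNA its difference was 0.25 log2 (adjusted p with the block 0.219), and the difference between the siRNA groups did not pass (adjusted p = 1). Xbp1, whose mRNA is the substrate of IRE1, was above vehicle at all 3 replicate numbers, by 0.26 log2 with CD24 siRNA and 0.24 log2 with scrambled siRNA (0.12 and 0.145 with the block). Spliced and unspliced Xbp1 cannot be told apart in 1 value per gene. Atf6 differed by -0.16 and -0.17 log2 and Eif2ak3 by 0.10 and 0.06 log2, and neither passed.

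Atf4 and its target genes showed no common difference from vehicle. With the block, 2 of 15 genes, Trib3 and Chac1, fell in each comparison, and 0 rose. Over all genes tested 12.1% fell and 10.4% rose with CD24 siRNA, and 11.4% fell and 11.9% rose with scrambled siRNA, so the share of the 15 that fell was near the background. The median difference was -0.08 log2 with CD24 siRNA and -0.01 log2 with scrambled siRNA, against 0.02 log2 over all genes tested. Without the block 0 of 15 passed in either comparison, where 3.73% of all genes fell with CD24 siRNA and 3.60% with scrambled siRNA. An unadjusted limma p under 0.05 was found for 3 of the 15 genes in each comparison without the block, against 22.2% of all genes with CD24 siRNA and 22.7% with scrambled siRNA. With the block it was found for 4 of the 15 in each, against 35.2% and 36.0% of all genes. At all 3 replicate numbers 3 of the 15 genes were below vehicle in each comparison, against 25.4% of all genes with CD24 siRNA and 24.3% with scrambled siRNA.

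Atf4 itself read 9.18, 8.83 and 8.48 with CD24 siRNA, 9.58, 8.76 and 8.52 with scrambled siRNA, and 9.14, 8.73 and 8.57 with vehicle. The order replicate 1, 2, 3 from high to low was the same in all 3 groups, and the groups overlapped. Its difference was 0.02 log2 with CD24 siRNA and 0.14 log2 with scrambled siRNA. The 95% interval with the block was -0.25 to 0.28 and -0.13 to 0.40 log2. Atf3 and Atf5, stress-induced relatives of Atf4, differed by 0.05 and -0.09 log2 with CD24 siRNA and by 0.10 and 0.01 log2 with scrambled siRNA. Ppp1r15a, which directs the phosphatase that resets eIF2 alpha, differed by 0.06 and 0.18 log2, and none of these passed.

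Chac1, which degrades glutathione and is a sensitive ATF4 target, gave the largest decrease among the 36 genes. It read 8.01, 8.01 and 7.52 with CD24 siRNA, 8.01, 7.41 and 6.94 with scrambled siRNA, and 9.20, 8.08 and 8.76 with vehicle. All IBMX/Dex arrays lay below all vehicle arrays, although CD24 siRNA replicate 2 was only 0.06 log2 below vehicle replicate 2. With scrambled siRNA Chac1 was 2.34-fold lower (-1.23 ± 0.33 log2, SE, limma adjusted p = 0.0586, and 0.0044 with the block). With CD24 siRNA it was 1.78-fold lower (-0.83 ± 0.33 log2, SE, limma adjusted p = 0.175, and 0.0256 with the block). With the block the scrambled call held without any 1 of the 9 arrays. The CD24 siRNA call needed replicates 1 and 3 of both of its groups.

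Trib3, a pseudokinase induced by ATF4 and CHOP that feeds back on both, read 7.62, 7.37 and 7.18 with CD24 siRNA, 7.75, 7.23 and 7.38 with scrambled siRNA, and 8.23, 7.62 and 7.98 with vehicle. It was below vehicle at all 3 replicate numbers in each comparison, and the highest IBMX/Dex arrays reached the lowest vehicle array, that of replicate 2. With the block it fell by 0.55 log2 with CD24 siRNA, 1.47-fold lower (limma adjusted p = 0.00872), and by 0.49 log2 with scrambled siRNA, 1.40-fold lower (0.0141). Without the block the adjusted p was 0.136 and 0.181. Leaving out scrambled replicate 2 or 3 or vehicle replicate 1 or 3 ended the scrambled call. Nupr1, a stress-induced chromatin protein, was 0.53 and 0.49 log2 lower and did not pass with the block (0.0847 and 0.104). Its differences at replicates 1, 2 and 3 were -0.04, -0.37 and -1.17 log2 with CD24 siRNA and 0.08, -0.55 and -0.99 log2 with scrambled siRNA, so its mean rests on replicate 3 most.

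The enzymes of amino acid and one-carbon metabolism under ATF4 control did not pass in either comparison. They were Asns (asparagine synthesis), Phgdh and Psat1 (serine synthesis), Shmt2 and Mthfd2 (mitochondrial folate metabolism) and Cth (cysteine synthesis). Their differences lay between -0.22 and 0.21 log2 with CD24 siRNA and between -0.18 and 0.07 log2 with scrambled siRNA. Asns read 11.52, 11.85 and 11.31 with CD24 siRNA, 11.42, 11.57 and 11.42 with scrambled siRNA, and 11.71, 11.72 and 11.50 with vehicle, and the groups overlapped. With CD24 siRNA all 6 enzymes were above vehicle at replicate 2, and the median difference there was 0.37 log2, against -0.13 at replicate 1 and -0.20 at replicate 3. Sesn2, an inhibitor of mTORC1 signalling, had the same alternation, with differences of -0.35, 0.43 and -0.47 log2 with CD24 siRNA and -0.50, 0.31 and -0.41 log2 with scrambled siRNA. Vldlr, a lipoprotein receptor also induced by PERK signalling, was 0.33 log2 higher in each comparison and did not pass with the block (0.0626 and 0.0612).

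**Figure D3:**
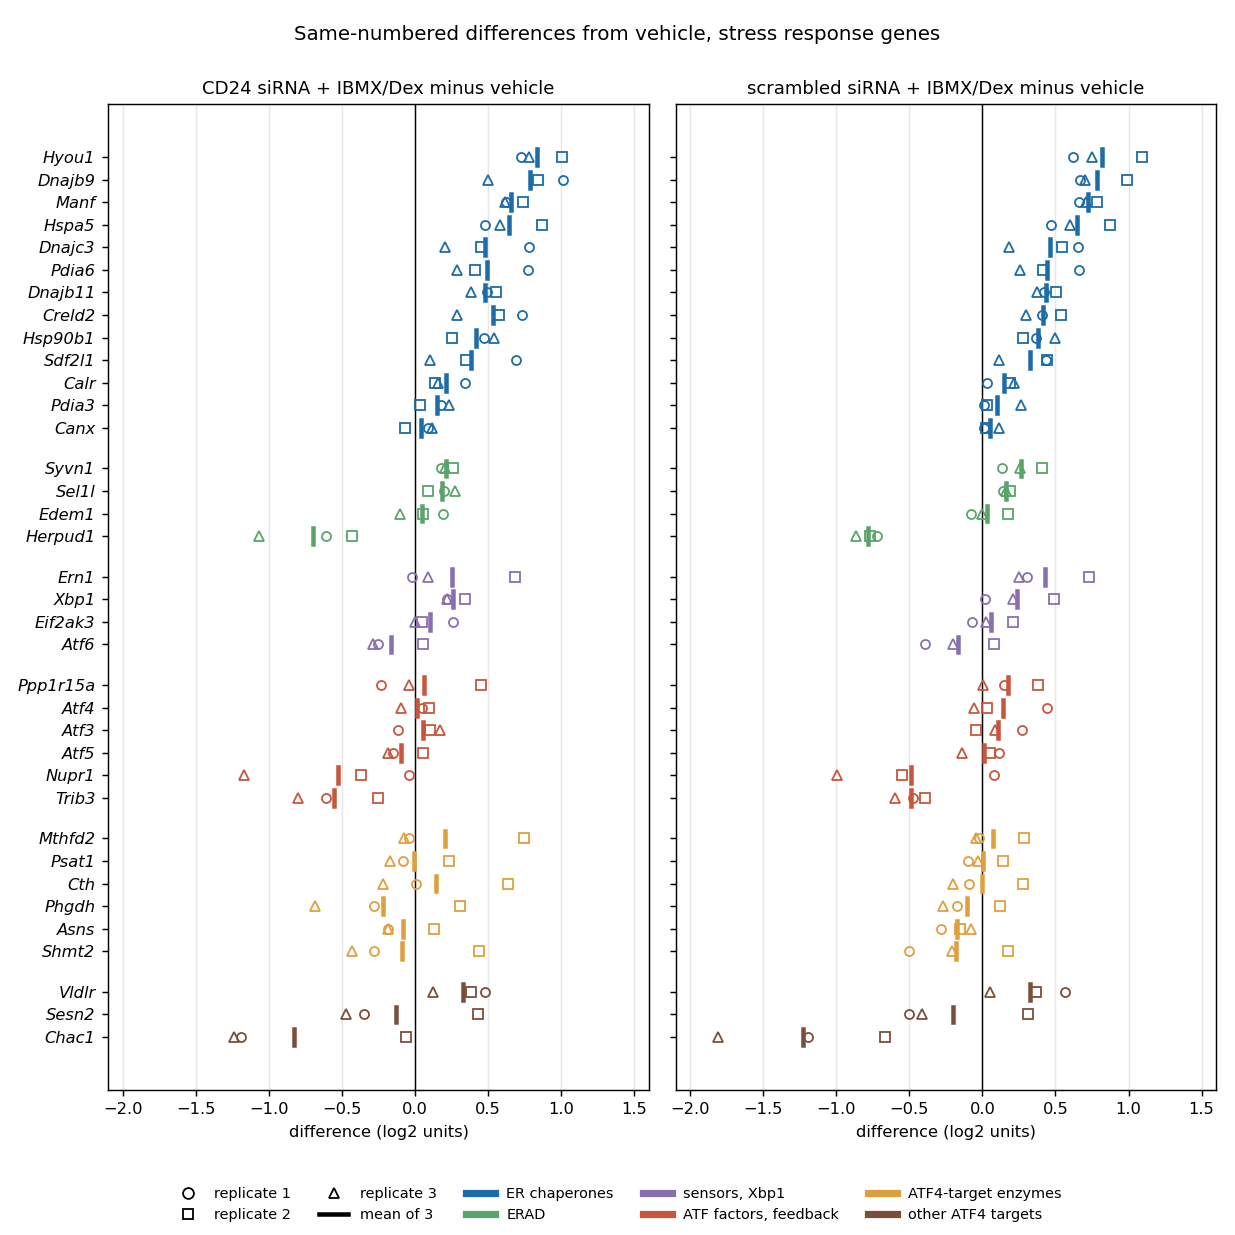
Difference in log2 expression from the vehicle array of the same replicate number, for the 36 measured genes, ordered by group and size; open symbols are the 3 replicate numbers and bars are means. Chaperone points lie to the right of 0 in both panels except Canx at replicate 2 with CD24 siRNA, while Herpud1, Chac1 and Trib3 lie to the left and Vldlr lies to the right. Among the other ATF4-group genes, Nupr1 with CD24 siRNA and Asns with scrambled siRNA lie to the left and Ppp1r15a with scrambled siRNA lies to the right, and the rest have points on both sides of 0 in each panel.

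The replicate numbers moved many of these genes together. Vehicle replicate 2 was the lowest vehicle array for 26 of the 36 genes, including all 4 of the sensor group, and for 47.3% of all genes tested. Replicate 1 was the highest array for 10 of the 15 ATF4-group genes in scrambled and in vehicle samples, and for 8 of 15 in CD24 siRNA samples. Of all 12630 genes tested it was the highest for 5126 (40.6%) in vehicle, 5008 in scrambled and 5738 in CD24 siRNA samples. The count of 8 of 15 with CD24 siRNA was thus near the share of all genes. Vehicle replicate 1 also stood apart in interferon-stimulated genes: the list of them averaged 9.61 there, against 7.61 and 7.69 in vehicle replicates 2 and 3. With the block 3 of 11 tested interferon-stimulated genes, Ifit2, Ifih1 and Ddx58, fell in each comparison, with list medians of -1.15 log2 with CD24 siRNA and -1.07 log2 with scrambled siRNA. Of all genes tested, 12.1% fell with CD24 siRNA and 11.4% with scrambled siRNA. Without the block 1 of 11 fell in each, against 3.73% and 3.60% of all genes. At replicates 1, 2 and 3 the list median was -1.94, 0.12 and -1.12 log2 with CD24 siRNA. With scrambled siRNA it was -1.37, -0.62 and -0.74 log2. With the block and without vehicle replicate 1, 6 listed genes rose and 3 fell with CD24 siRNA, and 5 rose and 3 fell with scrambled siRNA. Nupr1 was then among those that fell (by 0.79 and 0.75 log2, limma adjusted p = 0.0199 and 0.0236), while Chac1 with CD24 siRNA and Trib3 with scrambled siRNA no longer passed. With the block and without vehicle replicate 2, 8 rose and 4 fell with CD24 siRNA, and 7 rose and 4 fell with scrambled siRNA, Sesn2 being the additional gene that fell. With the block and without vehicle replicate 3, 11 rose and 2 fell in each comparison, Sdf2l1 and Vldlr being the additional genes that rose. Over the block fits that left out 1 array, 1619 to 2652 of all genes were called with CD24 siRNA. With scrambled siRNA 1591 to 2924 were called. The part that these array differences play in the results was not tested beyond this.

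Other genes of the same pathways were read from wider lists, and their counts with the block stand against the same shares of all genes, 10.4% higher and 12.1% lower with CD24 siRNA and 11.9% higher and 11.4% lower with scrambled siRNA. Of 19 other ER folding genes tested, 4 rose with CD24 siRNA and 3 with scrambled siRNA with the block, and 0 fell, with medians of 0.14 and 0.11 log2. Without the block 0 of the 19 passed with CD24 siRNA and 1, P4hb, rose with scrambled siRNA, where 2.92% and 3.33% of all genes rose. Txndc11, a thioredoxin-domain protein of the ER, was 1.66-fold higher with CD24 siRNA and 1.64-fold higher with scrambled siRNA (limma adjusted p with the block 0.0033 and 0.0035). P4hb, the founding protein disulfide isomerase, was 1.36-fold and 1.39-fold higher (0.00676 and 0.00483 with the block, 0.0626 and 0.0486 without). Serp1, which stabilises membrane proteins at the translocon, rose in both with the block, and the translocon subunit Ssr1 with CD24 siRNA. For the genes of the wider lists that passed in 1 of the 2 comparisons, the difference between CD24 siRNA and scrambled siRNA did not pass (limma adjusted p = 1).

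Of 13 other ERAD genes, 2 rose and 0 fell with the block in each comparison, and the number that rose was near the background of 10.4% with CD24 siRNA and 11.9% with scrambled siRNA. Without the block 0 of the 13 passed in either comparison, where 2.92% of all genes rose with CD24 siRNA and 3.33% with scrambled siRNA. Selenos, a selenoprotein of the retrotranslocation complex, read 9.61, 8.57 and 8.72 with CD24 siRNA, 9.83, 8.66 and 8.69 with scrambled siRNA, and 8.85, 7.96 and 7.79 with vehicle. Replicate 1 stood about 1 log2 unit above the others in every group, and the rise of 0.77 and 0.86 log2 passed with the block alone (0.00102 and 0.000523, against 0.313 and 0.254). Edem3, a mannosidase that marks glycoproteins for ERAD, was 0.51 and 0.63 log2 higher (0.0122 and 0.00475 with the block).

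Of 15 other eIF2 kinases and ER stress factors, 2 rose and 3 fell with CD24 siRNA, and 1 rose and 4 fell with scrambled siRNA, with the block. Over all genes 10.4% and 11.9% rose and 12.1% and 11.4% fell, so the numbers that rose were near or below the background. Eif2ak4, which encodes GCN2, the eIF2 alpha kinase that senses uncharged tRNA, had the clearest difference. It read 8.65, 8.66 and 8.46 with CD24 siRNA, 8.51, 8.70 and 8.41 with scrambled siRNA, and 9.60, 9.61 and 9.23 with vehicle. The ranges were apart, and it fell by 0.89 log2 with CD24 siRNA (limma adjusted p = 0.008, 1.85-fold lower) and by 0.94 log2 with scrambled siRNA (0.00623, 1.92-fold lower), both without the block. Of the 15 genes, Eif2ak4 alone passed without the block, where 3.73% of all genes fell with CD24 siRNA and 3.60% with scrambled siRNA. Eif2ak1, the haem-sensing kinase, was 0.33 and 0.35 log2 higher (0.047 and 0.0356 with the block). Ddit3, which encodes the ATF4-induced factor CHOP, read 9.14, 8.54 and 8.18 with CD24 siRNA, 9.31, 8.33 and 8.34 with scrambled siRNA, and 9.85, 8.97 and 8.78 with vehicle. It was lower at all 3 replicate numbers and fell by 0.58 and 0.54 log2 with the block (0.00471 and 0.00625), while the group ranges overlapped. Jdp2, a bZIP repressor, also fell in both (0.0254 and 0.0209 with the block), Creb3l1, a membrane-bound factor, fell with scrambled siRNA (0.0386), and Wfs1, an ER membrane protein, rose with CD24 siRNA (0.0436).

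Of 22 other ATF4 target genes tested, 0 fell, and with the block 2 rose with CD24 siRNA and 3 with scrambled siRNA, with medians of -0.03 and -0.06 log2. With the block 10.4% and 11.9% of all genes rose and 12.1% and 11.4% fell, so the numbers that rose were near the background. Without the block 0 of the 22 passed in either comparison. Those that rose with the block were Ddit4 and Cebpb in both comparisons and Mthfd1l, a mitochondrial folate enzyme, with scrambled siRNA. Ddit4, an mTORC1 inhibitor that glucocorticoids also induce, was 2.07-fold and 2.38-fold higher (limma adjusted p with the block 0.0154 and 0.00689). Cebpb, an early adipogenic transcription factor that cAMP signalling also induces, was 0.73 and 0.77 log2 higher (0.0321 and 0.0259).

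Heat shock genes that act outside the ER were read for comparison. Of 10 tested, 5 rose and 1 fell with CD24 siRNA, and 7 rose and 1 fell with scrambled siRNA, with the block, and the medians were 0.34 and 0.38 log2. Among all genes 10.4% and 11.9% rose and 12.1% and 11.4% fell. Hsph1, a cytosolic exchange factor of Hsp70, read 10.83, 10.54 and 10.61 with CD24 siRNA, 10.95, 10.68 and 10.76 with scrambled siRNA, and 9.07, 8.56 and 9.26 with vehicle. It rose 3.24-fold and 3.56-fold without the block (limma adjusted p = 0.00136 and 0.000891). Bag3, a co-chaperone of Hsp70 in selective autophagy, rose 2.69-fold and 2.71-fold (0.000699 and 0.000745). Both estimates exceed that of every listed ER chaperone gene. Hspb8, the small heat shock partner of Bag3, fell by 0.53 and 0.63 log2 (0.0142 and 0.00651 with the block).

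**Figure D4:**
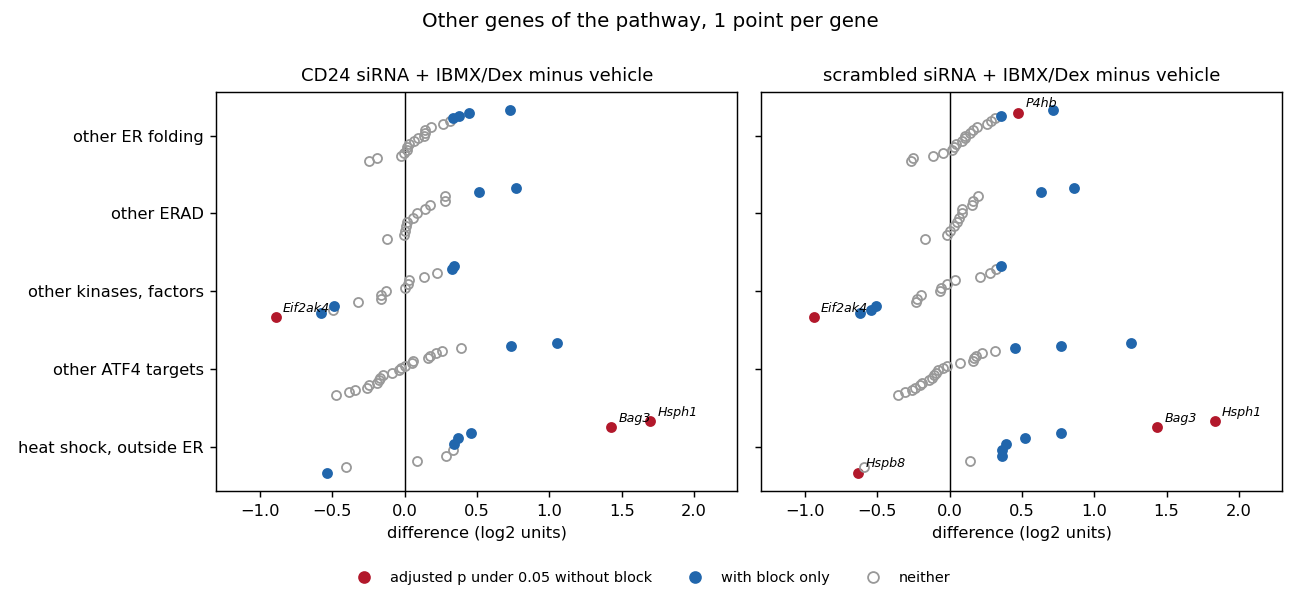
Difference from vehicle in log2 units for genes of 4 wider pathway lists and of the heat shock list outside the ER, 1 point per gene, with CD24 siRNA on the left and scrambled siRNA on the right (both with IBMX/Dex). Red points passed the limma adjusted p of 0.05 without the replicate block and are named, blue points passed with the block only, and open points passed neither; Hsph1 and Bag3 lie farthest to the right and Eif2ak4 farthest to the left.

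The listed genes gave no call between CD24 siRNA and scrambled siRNA, both with IBMX/Dex. Of the 36 genes, 0 had a limma adjusted p under 0.05 with or without the block, where 0.00% of all genes tested did. None of the 36 had an unadjusted p under 0.05 in either fit, against 0.238% of all genes without the block and 1.73% with it. The median difference was 0.04 log2 for the chaperone genes and -0.01 log2 for the ATF4 group, and -0.01 log2 over all genes tested. The interval of Hspa5 ran from -0.24 to 0.24 log2 with the block, and that of Hyou1 from -0.23 to 0.26 log2. Both upper and lower bounds are smaller than the differences of these genes from vehicle.

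The largest difference among the listed genes was that of Chac1, 0.40 log2 higher with CD24 siRNA, with a 95% interval of -0.10 to 0.89 log2 with the block and -0.35 to 1.14 log2 without it. Its differences at replicates 1, 2 and 3 were 0.00, 0.60 and 0.58 log2. Ern1 was the 1 gene whose groups did not overlap, lower with CD24 siRNA by 0.18 log2, where 1.54% of all genes were lower without overlap. Its 95% interval with the block ran from -0.48 to 0.13 log2. Since the library labelled CD24 siRNA replicate 3 kept Cd24a at the scrambled level, the fit was repeated without it. Again 0 of the 36 genes passed, with or without the block, and the chaperone median was 0.03 log2 without the block and 0.08 log2 with it. The median of the ATF4 group, -0.01 log2 with all arrays, was then 0.15 log2 without the block and 0.08 log2 with it. Against vehicle, leaving that library out ended all 3 chaperone calls of the CD24 siRNA group without the block, while 8 listed genes rose and 2 fell with the block.

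**Figure D5:**
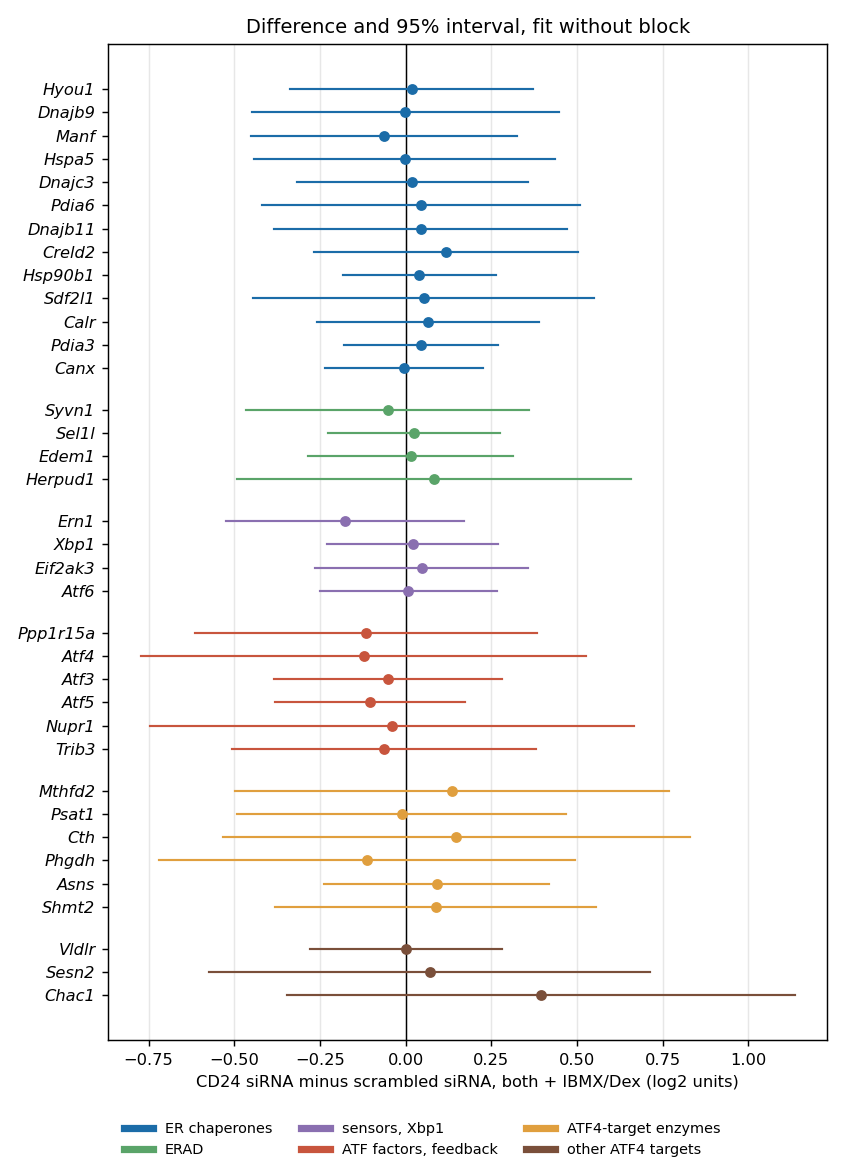
Difference in log2 expression between CD24 siRNA and scrambled siRNA samples, both with IBMX/Dex, for the 36 measured genes; points are estimates and lines are 95% intervals of the limma fit without the replicate block (3 samples per group). Every interval includes 0, and Chac1, at 0.40 log2, lies farthest from it.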

How the data were processed

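RNA of 9 samples (250 ng each, per the labels) was hybridised to single-colour arrays. The authors deposited log2 expression values for 41345 probe sets, made with RMA and the oligo package per the submitters' processing notes, with versions not given in the sources used here. RMA equalises array distributions, so a shift of most transcripts is removed and dim probe sets are compressed. The values were used as deposited.

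Of the probe sets, 23521 had 1 gene symbol, 1814 several and 16010 none here. The brightest probe set of each of 22180 genes was kept, and 12630 genes with at least 3 of their 9 values at or above the overall median (6.51) were tested with limma 3.58.1 in R 4.3.3 over all 9 arrays, with Benjamini-Hochberg adjustment over all of them and a threshold of 0.05. The 95% interval of a difference reached a median of 0.34 log2 to either side without and 0.25 log2 with the replicate block, and the number of arrays limits the precision. The fit was tested on simulated data.

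The titles number the replicates, and the descriptions carry a code shared within a number. Deviations from group means correlated at 0.377 to 0.732 where 2 arrays shared a number and at 0.116 or below otherwise, and 9 of 9 arrays correlated best with their own number. Same-numbered arrays thus resembled each other. Deviations cancel within each group, so high values for shared numbers in part force the other values low. The block was the alternative to the design without it. Further alternatives were leaving out each array, other filters, scaling, probe set rules, an intensity trend and fits of 6 arrays. Genes named are all listed genes, Cd24a, and from the wider lists those with an adjusted p under 0.05 in any comparison, at most 6 per list, and of marker and interferon lists the brightest and any called. Listed genes and lists were chosen with earlier results of these data known. Promoter windows came from RefSeq (GRCm38.p6), and no other coordinates were used, since the array files name no build. Figures were drawn with matplotlib 3.10.9.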

Additional observations from a re-analysis of the deposited data

How the results depend on the processing

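All counts here are of limma adjusted p under 0.05. With the replicate block, genes called numbered 2831 with CD24 siRNA and 2942 with scrambled siRNA against vehicle, compared with 840 and 876 without it; listed genes called higher numbered 9 and 10 instead of 3 and 3, and listed genes called lower 3 and 3 instead of 0 and 0. Without the block, leaving out 1 array gave 320 to 858 genes called with CD24 siRNA and 313 to 808 with scrambled siRNA, 0 to 3 listed genes higher in each, and 0 listed genes lower with CD24 siRNA and 0 to 1 with scrambled siRNA. With the block, it gave 1619 to 2652 and 1591 to 2924 genes called, 6 to 11 and 5 to 11 listed genes higher, and 2 to 4 lower in each; these block fits, except that without CD24 siRNA replicate 3, were chosen after seeing the data. The chaperone median ran from 0.34 to 0.57 log2 with CD24 siRNA and 0.33 to 0.50 with scrambled siRNA without the block, and from 0.40 to 0.59 and 0.37 to 0.50 with it. The median of the ATF4 group ran from -0.14 to 0.04 and -0.15 to 0.055 without the block, and from -0.16 to 0.01 and -0.20 to 0.056 with it. Between CD24 siRNA and scrambled siRNA the chaperone median ran from -0.10 to 0.10 without the block and -0.03 to 0.08 with it, and that of the ATF4 group from -0.10 to 0.15 and -0.10 to 0.08. Without the block, no filter and median centring each left 1 listed gene higher in both comparisons, Hyou1. Fits of the 6 arrays compared left 0 listed genes higher in both, with 461 genes called for CD24 siRNA and 389 for scrambled siRNA. Chac1 was called lower with scrambled siRNA under the 75th percentile filter and under quantile normalization, 1 gene in each case. It passed that filter (8.07) through its vehicle arrays alone, the group in which it is high. The call under that filter is therefore no separate support. The cause of these changes was not tested. No result of these fits that passed the threshold changed direction.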

Other observations

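Pdia4, a protein disulfide isomerase of the ER, could not be read alone, since its probe set also names Mir704. That probe set read 8.45, 8.44 and 8.45 with CD24 siRNA, 8.08, 8.49 and 8.63 with scrambled siRNA, and 7.91, 7.97 and 8.36 with vehicle. Its mean difference from vehicle was 0.37 log2 with CD24 siRNA and 0.32 log2 with scrambled siRNA, and it entered no test. Edem1 had a second probe set that averaged 5.72 with CD24 siRNA, 5.75 with scrambled siRNA and 5.83 with vehicle, below the filter level of 6.51.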
